A study of Caenorhabditis elegans with 2 samples.

Results

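The regions described here are the 1500 strongest candidate REF-1 binding regions of Caenorhabditis elegans midembryos that lay away from promoters, away from tRNA, snoRNA and snRNA genes and off strong tandem repeats. Genes of other structural RNAs were not part of the rule, and some members lay on them. They were selected on signal, the strength that the authors' list gives each candidate on a scale it does not state, in a list ranked between 2 biological replicates. The list was read from its strongest entry downwards. An entry was kept when its summit lay outside the stretch from 1000 bp upstream to 200 bp downstream of every protein-coding transcript start and over 100 bp from every tRNA, snoRNA and snRNA gene. In addition, under 75% of the bases within 100 bp of the summit could match themselves at any one shift of 8 to 100 bp. Of 72151 candidates, the first 2843 had to be read to find the 1500 members. Of those read, 830 were dropped as promoter entries, 254 as entries near tRNA, snoRNA or snRNA genes and 259 as tandem repeats. The members formed 1498 separate loci. By their summits, 553 members were intergenic, 541 lay in introns and 406 in exons of protein-coding genes. The comparison regions were the other 50039 distal candidates that met the same position and repeat rules, and 362748 tiles that reach 100 bp to each side of a centre and cover the distal genome under those rules.

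The study has 1 group and no contrast between conditions. Both replicates were whole animals of strain RW12224, in which CRISPR put TY1, EGFP and 3xFLAG tags on ref-1 at its own place on chromosome II. The animals were midembryos with a labelled age of 3 hours, obtained by bleaching eggs. Chromatin was sonicated and precipitated with an antibody against GFP. All values come from the mixture of cells in a whole embryo, and no cell type was assigned. The control library named in the labels was not analysed here, the files give no read counts, and the depth is therefore unknown. Positions are on the ce11 build, and gene models are from Ensembl release 115.

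REF-1 gives its name to a group of worm transcription factors with a pair of basic helix-loop-helix domains, which are distant relatives of the HES repressors. HES proteins act downstream of Notch in animals and prefer the class C site CACGCG and the E box CACGTG over other E boxes (CANNTG). Sites far from promoters can be enhancers, but chromatin precipitation also recovers genes with very active transcription. Genes transcribed by RNA polymerase III are a particular case, since many carry their promoter inside the transcribed sequence, as an A box and a B box that the factor TFIIIC binds.

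A repeated element with a tRNA-like core is shown first because it held 17 members, among them 7 of the 32 that both replicates called separately. The capitals mark matches to GGCNNAGTG (like an A box) and to GTTCNANNC (like a B box), words chosen after these sequences were seen. Sequences were read from the RefSeq WBcel235 assembly, which is the same as ce11.
Copy upstream of nhr-277, chrIV:2740210-2740284, plus strand: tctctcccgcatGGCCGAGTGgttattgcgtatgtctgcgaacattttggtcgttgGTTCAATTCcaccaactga
Copy upstream of sor-3, chrX:351553-351627, minus strand: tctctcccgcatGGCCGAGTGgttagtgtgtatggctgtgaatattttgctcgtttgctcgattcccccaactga
Copy upstream of srsx-8, chrV:1561373-1561447, plus strand: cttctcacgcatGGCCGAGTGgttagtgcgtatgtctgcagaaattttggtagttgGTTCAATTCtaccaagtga
Copy in an intron of srt-52, chrV:53474-53546, plus strand: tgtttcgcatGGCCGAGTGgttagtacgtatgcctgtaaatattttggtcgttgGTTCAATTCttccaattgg
The copy near sor-3 has the A box word but no exact B box word.

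The next set shows 121 bp around the summits of strong members at annotated noncoding RNA genes or a tRNA pseudogene. The capitals mark the same pair of words on either strand.
Intron of unc-104 at the tRNA pseudogene C52E12.t1, chrII:7001583-7001703, plus strand: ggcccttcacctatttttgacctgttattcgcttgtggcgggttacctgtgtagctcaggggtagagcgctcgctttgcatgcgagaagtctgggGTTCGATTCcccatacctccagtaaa
Beside mir-51, chrIV:11026151-11026271, plus strand: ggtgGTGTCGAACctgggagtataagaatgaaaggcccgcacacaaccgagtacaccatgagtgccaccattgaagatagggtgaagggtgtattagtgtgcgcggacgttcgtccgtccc
Intron of tba-7 at T28D6.13, chrIII:11371415-11371535, plus strand: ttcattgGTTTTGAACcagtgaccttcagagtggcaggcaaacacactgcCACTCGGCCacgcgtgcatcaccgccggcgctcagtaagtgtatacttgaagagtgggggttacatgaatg
Beside K10H10.11, chrII:14496962-14497082, plus strand: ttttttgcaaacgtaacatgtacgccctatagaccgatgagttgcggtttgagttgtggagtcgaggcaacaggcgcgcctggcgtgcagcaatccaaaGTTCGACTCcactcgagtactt
All 4 stretches hold the B box word. The stretch in tba-7 also holds the A box word, and both its words read on the minus strand. The stretches at mir-52 and srpr-2.2 were read as well, hold neither word and are not shown. Within 100 bp of the summit, 7 of 33 members near microRNA or ncRNA genes in the conservative set held the B box word (21.2%). Among all 172 members in the conservative set, 34 held it (19.8%), which is close to that share.

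A further set shows sequence families, that is, members whose windows of 100 bp to each side of the summit align with each other. Capitals mark the 8-base word held by most members of the family, or TTAGGC for the family of telomere-like repeats.
Family of 89, in srw-100, chrV:1713867-1713987, plus strand: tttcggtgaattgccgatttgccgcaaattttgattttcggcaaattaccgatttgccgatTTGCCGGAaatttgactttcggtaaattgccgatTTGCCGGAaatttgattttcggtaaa
Family of 32, near Y61B8B.3, chrV:17310665-17310785, plus strand: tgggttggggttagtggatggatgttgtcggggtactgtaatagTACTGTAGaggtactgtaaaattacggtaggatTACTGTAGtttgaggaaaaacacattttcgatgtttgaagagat
Family of 26, near W09G12.9, chrIV:1217677-1217797, plus strand: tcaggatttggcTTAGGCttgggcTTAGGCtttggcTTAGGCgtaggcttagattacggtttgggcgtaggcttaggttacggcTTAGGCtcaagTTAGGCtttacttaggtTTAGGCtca
Family of 6, near clec-9, chrV:16708454-16708574, plus strand: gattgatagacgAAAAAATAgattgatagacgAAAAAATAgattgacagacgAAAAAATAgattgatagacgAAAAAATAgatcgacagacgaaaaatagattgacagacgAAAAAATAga
Family of 6, near Y57G11C.8, chrIV:14780013-14780133, plus strand: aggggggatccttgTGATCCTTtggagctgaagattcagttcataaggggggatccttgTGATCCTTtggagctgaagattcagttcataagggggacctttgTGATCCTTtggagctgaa

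The last set shows the same windows of 4 strong members outside the larger sequence families that hold a class C site or a palindromic E box. They were chosen after their values were seen, and the window beside C46C2.7 aligns with that of 1 other member. Capitals mark CACGNG and CANNTG.
Intron of mdt-26, chrII:5661745-5661945, plus strand: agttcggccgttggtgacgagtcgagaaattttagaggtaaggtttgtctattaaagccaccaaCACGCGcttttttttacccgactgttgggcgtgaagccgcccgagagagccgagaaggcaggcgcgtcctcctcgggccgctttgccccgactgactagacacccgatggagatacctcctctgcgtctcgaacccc
Intron of act-4, chrX:4961082-4961282, plus strand: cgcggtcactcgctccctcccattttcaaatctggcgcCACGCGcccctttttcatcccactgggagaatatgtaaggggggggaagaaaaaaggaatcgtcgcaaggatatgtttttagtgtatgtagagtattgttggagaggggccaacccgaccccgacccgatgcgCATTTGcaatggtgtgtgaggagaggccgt
Upstream of aakg-1, chrIII:12583603-12583803, plus strand: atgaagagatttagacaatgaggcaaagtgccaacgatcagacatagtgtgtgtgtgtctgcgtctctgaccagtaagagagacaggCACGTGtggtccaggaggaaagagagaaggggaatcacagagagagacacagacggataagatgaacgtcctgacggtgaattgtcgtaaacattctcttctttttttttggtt
Beside C46C2.7, chrIV:9196344-9196544, plus strand: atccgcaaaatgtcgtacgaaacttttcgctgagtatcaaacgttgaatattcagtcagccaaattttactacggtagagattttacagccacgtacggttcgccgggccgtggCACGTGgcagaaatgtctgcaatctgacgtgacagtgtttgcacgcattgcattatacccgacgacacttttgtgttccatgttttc
The windows in mdt-26 and act-4 hold the class C site, and the windows near aakg-1 and C46C2.7 hold the palindromic E box.

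Signal, on which the members were chosen, fell steeply along the list. The strongest member had a signal of 1430.3, the 100th had 90.6, the median was 63.2, and the quartiles were 59.7 and 69.96. A signal over 200 was seen in 24 members, and 1126 members lay under 70. The last member inside the limit had 57.10 and the first entry outside it 57.09, so no step separates the members from the next candidates. The other distal candidates had a median of 27.8, and all candidates together had a median of 28.5. These values only describe the choice, and nothing was tested on them.

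Each replicate was also ranked alone, on a scale of its own. In replicate 1, 1406 members overlapped a candidate, with a median signal of 29.5 (quartiles 25.1 and 34.8) and a highest value of 649. In replicate 2, 1433 members overlapped a candidate, with a median of 34.5 (quartiles 29.4 and 40.9) and a highest value of 810 (809.8). Of the 1344 members with a value in both lists, 886 were higher in replicate 2, and the median log2 ratio of replicate 2 to replicate 1 was 0.24 with an SD of 0.55 across members. The replicates were scaled separately, so that ratio describes the pair of lists and not the embryos.

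**Figure D1:**
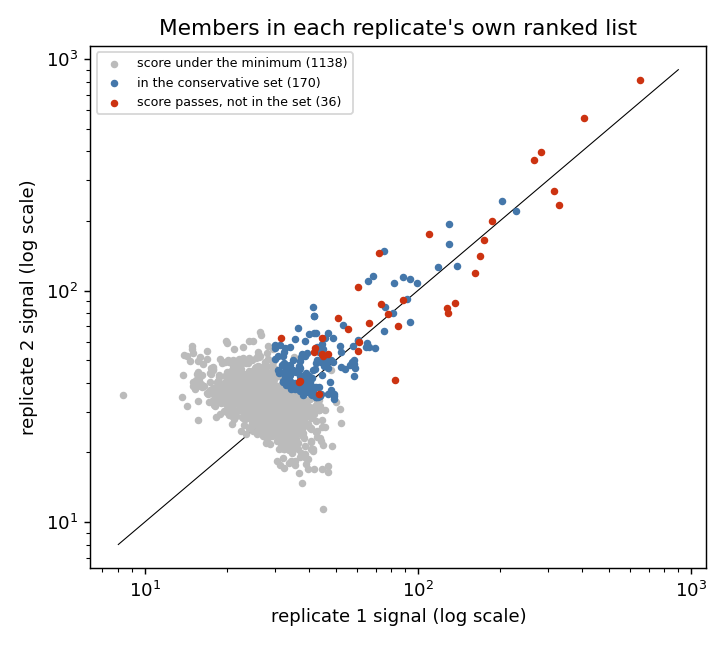
Signal of each member in the ranked list of replicate 1 (x axis) and of replicate 2 (y axis), both on log scales, for the 1344 members with a candidate in both lists; the line marks equal values. The strongest members lie along the line, the grey points under the score minimum form a cloud that slopes downwards, and the red points pass the score minimum without overlapping the authors' conservative set.

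The authors score the agreement of the replicates with the irreproducible discovery rate, and their thresholded sets begin at a score of 830. That score was reached by 207 of the 1500 members (13.8%), against 1.19% of all candidates. The conservative set of 675 peaks was overlapped by 172 members (11.5%), against 0.96% of all candidates. Replicate 1's own thresholded set was overlapped by 56 members (3.73%, all candidates 0.496%) and replicate 2's by 70 members (4.67%, all candidates 0.574%). Both sets were overlapped by 32 members (2.13%), against 0.378% of all candidates. Members were chosen for signal from the same libraries, so a higher share than among all candidates follows from the choice and is no result about them.

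Agreement was concentrated at the top of the list. All 32 members in both replicates' sets were among the first 100, and the conservative set held 66 of ranks 1 to 100, 60 of ranks 101 to 200, 37 of the next 200, 6 of ranks 401 to 800 and 3 of ranks 801 to 1500. By class, the conservative set was overlapped by 80 of 553 intergenic members (14.5%, exact 95% interval 11.6 to 17.7), 69 of 541 intronic members (12.8%, 10.06 to 15.9) and 23 of 406 exonic members (5.67%, 3.62 to 8.38). Exonic members made up 4% of ranks 1 to 100 and 29.9% of ranks 801 to 1500, so these shares do not separate class from rank. The same shares by class were not computed for all candidates. Intervals given here are Clopper-Pearson intervals and cover counting error only. Most of the 1500 members are therefore candidates with a high signal in the pooled ranking that the authors' own thresholds did not keep.

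The strongest members of all were mostly not in the thresholded sets. Of the first 10 members, 3 overlapped the conservative set. The member with the highest signal lay between genes on chromosome X at 293445, 3789 bp upstream of R57.2, and had signals of 649 in replicate 1 and 810 (809.8) in replicate 2. The second, on chromosome V at 16708514 and 1865 bp upstream of the C-type lectin gene clec-9, had a signal of 865, with 406 in replicate 1 and 557 in replicate 2. The next entries lay near nas-30, which encodes an astacin-type metalloprotease (682), near lgc-26, which encodes a ligand-gated ion channel subunit (614), near Y57G11C.8 (553) and near F52G2.3 (479.9). Both replicates were high at all 6 of these sites, and none of the 6 overlapped either replicate's own set.

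In all, 37 members reached the score of 830 without overlapping the conservative set, of 180 such entries among the 855 candidates with that score. Of the 37, 34 were intergenic, 3 exonic and 0 intronic. A window is called repeated here when under 50% of its 31-base words occur once in the genome. By that measure 32 of the 37 were repeated (86.5%, interval 71.2 to 95.5), against 36 of the 170 members that reached the score and overlapped the conservative set (21.2%, 15.3 to 28.1). The sources used here do not give how entries were removed between the ranked and the thresholded lists, and the part of repeated sequence in these signals was not tested.

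The class composition changed along the ranking. Among ranks 1 to 100, 67 members were intergenic, 29 intronic and 4 exonic. Among ranks 801 to 1500, 33.9% were intergenic, 36.3% intronic and 29.9% exonic. Over all 1500, 36.9% were intergenic (interval 34.4 to 39.4), 36.1% intronic (33.6 to 38.6) and 27.1% exonic (24.8 to 29.4). The other distal candidates were 29.7% intergenic, 36.3% intronic and 34.02% exonic, and the distal genome was 33.6% intergenic, 36.8% intronic and 29.6% exonic. The lower ranks thus had a composition close to that of the distal genome, and the first 100 had far fewer exonic summits.

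**Figure D2:**
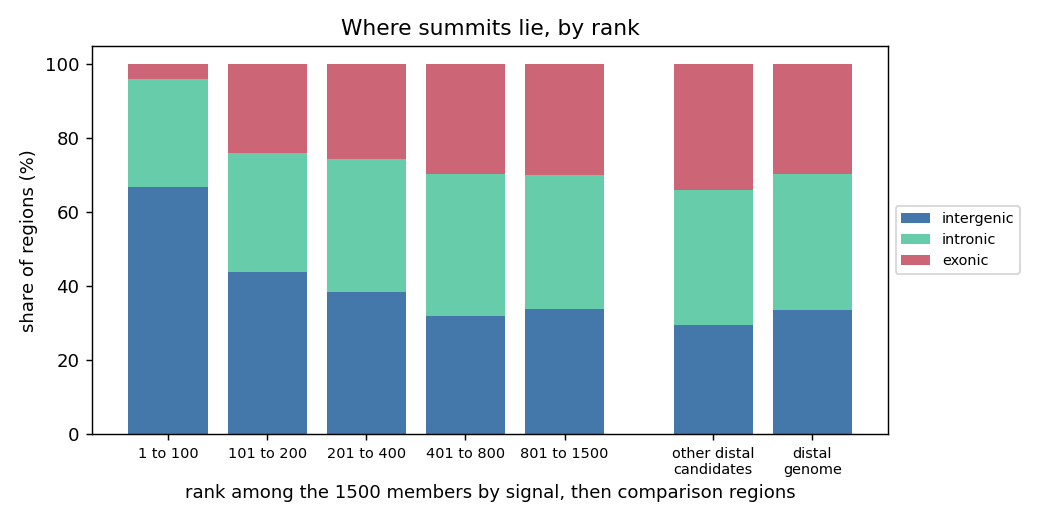
Share of regions (%) with intergenic, intronic and exonic summits, for 5 ranges of rank among the 1500 members and, on the right, for the other distal candidates and the tiles of the distal genome. The exonic share is 4% in ranks 1 to 100 and 29.9% in ranks 801 to 1500, against 34.02% in the other distal candidates and 29.6% in the distal genome.

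The nearest protein-coding transcript start was a median of 2970 bp from the intergenic members (quartiles 1767 and 4534 bp), 1767 bp from the intronic members and 1508.5 bp from the exonic members. The most remote member lay 40928 bp from any start, and 26 members lay over 10 kb away. Of the 406 exonic summits, 366 were in coding sequence (90.1%, interval 86.8 to 92.9), against 90.2% for the other distal candidates and 87.6% for the distal genome.

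What the windows held was sorted into exclusive kinds in a fixed order. The kinds and their order were chosen after the values were seen. A sequence family counted as a kind from 3 members, and pseudogenes other than those of tRNAs were not a kind. Windows in smaller families or at such pseudogenes could thus fall under none of these. Of the 32 members in both replicates' own sets, 2 lay within 100 bp of microRNA genes, 7 on the tRNA-like element, 1 on another tRNA pseudogene, 5 at other noncoding RNA genes, 4 in other sequence families and 4 in other repeated sequence, and 9 had none of these. Of the 172 members in the conservative set, 81 (47.1%, interval 39.5 to 54.8) had none of these features. Of all 1500 members, 1054 (70.3%) had none.

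**Figure D3:**
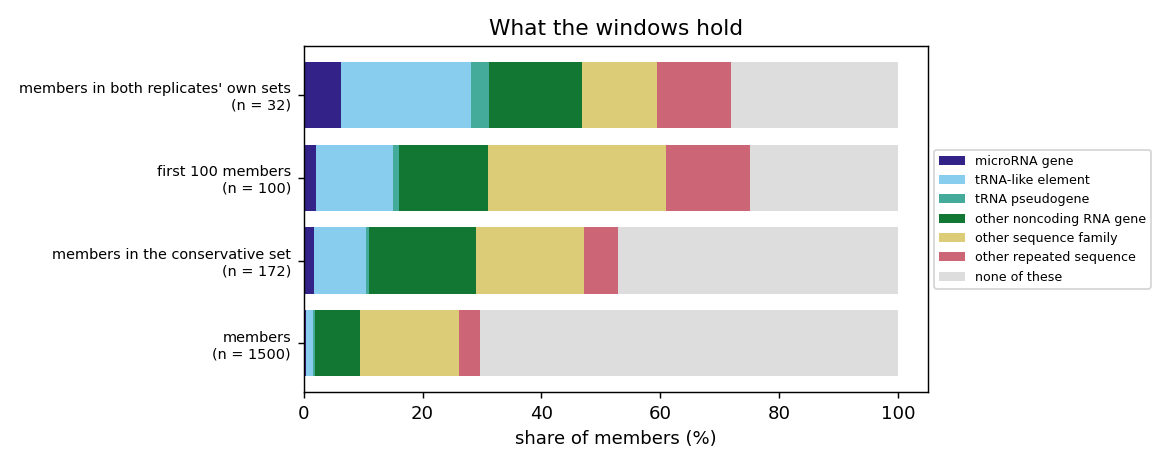
Share of members (%) by what the window holds, for members in both replicates' own sets, the first 100 members, the members in the conservative set and all members. The light grey part without any of the listed features is 28.1% of the members in both sets, 25% of the first 100, 47.1% of those in the conservative set and 70.3% of all members.

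The tRNA-like element had 65 copies in the genome that aligned across its core to the strongest copy at 80% identity or more, with a median identity of 90.2%. A candidate summit lay within 100 bp of the aligned position in 41 of the 65 copies, and 17 of the copies were members. Summits at 3 further copies lay in promoter windows and were not eligible, and 1 of these had a signal of 146 and overlapped the conservative set. The 17 members had a median signal of 105 and ranged between 61.4 and 267, and 15 of them overlapped the conservative set. The strongest, beside the tRNA pseudogene Y94H6A.t1 and 2780 bp upstream of the nuclear receptor gene nhr-277, had 140 (139.7) in replicate 1 and 127 in replicate 2. The copy upstream of sor-3 had 88.4 in replicate 1 and 115 in replicate 2. The copy upstream of srsx-8 had 93.8 in replicate 1 and 112 in replicate 2. Their signals were similar in the pair of replicates in each case.

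Among the members, summits lay close to the same base of the element. Counted along the element from the summit of the strongest copy, the summits of the 17 members were displaced by a median of 6 bp (range -21 to 40 bp). Of the 17, 14 lay within 20 bp. The strongest copy is among the 17, at 0 bp by definition. Summits were sought only within 100 bp of the aligned position, so part of this closeness follows from the definition. Over all 41 copies with a candidate the spread was wider, with 21 of 41 within 20 bp and a range of -79 to 91 bp. Both box words were present, in order, in 33 of the 65 copies. Of those 33, 9 were members and 7 overlapped the conservative set. Of the other 32 copies, 8 were members and 9 overlapped the conservative set, so exact matches to both words did not separate members from the rest. The B box word alone was in 9.07% of members, 7.42% of the other distal candidates and 7.23% of the tiles, and the A box word alone in 3.87%, 1.44% and 0.935%. Across all windows, the A box word followed by the B box word within 100 bp on the same strand was found in 24 members (1.6%, interval 1.03 to 2.37), in 0.238% of the other distal candidates and in 0.11% of the tiles. Outside the element it was found in 15 of 1483 members (1.01%, interval 0.567 to 1.66).

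Annotated noncoding RNA genes were near members more often than near the other distal candidates. Summits lay within 100 bp of genes of the ncRNA class for 106 members (7.07%, interval 5.82 to 8.48), against 3.09% of the other distal candidates and 2.12% of the tiles. In the conservative set the share of members was 33 of 172 (19.2%, 13.6 to 25.9). The share was 7 members (0.467%, 0.188 to 0.959) for microRNA genes, against 0.0879% and 0.0708%, and 10 members (0.667%, 0.32 to 1.22) for lincRNA genes, against 0.314% and 0.311%. It ran the other way for genes of piRNAs, the small RNAs that guard the germ line, with 5 members (0.333%, 0.108 to 0.776) against 0.715% and 2.55%. For pseudogenes of all kinds it was 49 members (3.27%, 2.43 to 4.3) against 3.67% and 4.31%. Summits lay within 100 bp of the 209 tRNA pseudogenes of the RefSeq annotation, looked up after values were seen, for 5 members, or 0.333% (0.108 to 0.776) against 0.0939% and 0.0637%.

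Among microRNA genes the strongest members lay at mir-51, mir-52 and mir-54, which belong to the mir-51 family that embryos need for development. The signal at mir-51 was 459, with 204 in replicate 1 and 244 in replicate 2. The signal at mir-52 was 229.9, with 75.3 in replicate 1 and 149 in replicate 2. The member at mir-54 had 71.6, with 31.4 and 44.4. The remaining 4, at mir-8205, mir-1829b, mir-4812 and mir-272, lay between 63.3 and 64.5, close to the median of all members. The summit at mir-51 lay outside the annotated mir-51 gene and within the short noncoding gene F36H1.17, and the summit at mir-52 lay within mir-52.

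The strongest member in an intron other than the one in cmk-1 lay in tba-7, an alpha tubulin gene, at 11371475 on chromosome III. Its signal was 324, with 130 (130.4) in replicate 1 and 195 in replicate 2, and the short noncoding genes T28D6.10, T28D6.13 and T28D6.15 are annotated there. The member in unc-104, the kinesin that carries synaptic vesicle precursors, had 293, with 130 (129.7) in replicate 1 and 159 in replicate 2, at the tRNA pseudogene C52E12.t1. A member upstream of dhs-8 at K10H10.11 and K10H10.14 had 202, with 98.99 in replicate 1 and 108 in replicate 2. All 3 overlapped both replicates' own sets. In tba-7 and unc-104 the host gene shares the window with the noncoding genes or the pseudogene. The start of dhs-8 lay 1004 bp from the summit, outside the window.

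RNA genes of the signal recognition particle and of RNase P were looked up after some had been seen among the strongest members. These RNAs are structural parts of ribonucleoproteins that target proteins to the endoplasmic reticulum or process tRNA precursors. All 5 annotated signal recognition particle RNA genes held a member. The signal was 201.4 at srpr-2.2 in an intron of the kinesin gene klp-6, 131 at srpr-2.1, 129 at srpr-1.2 in the choline kinase gene ckb-2, 103 at srpr-1.1 and 77.7 at srpr-3. At srpr-2.2 replicate 1 had 81.8 and replicate 2 had 108. At srpr-3, the weakest, replicate 1 had 43.8 and replicate 2 had 31.9, and this member alone of the 5 was not in the conservative set. The RNase P RNA gene rpr-1 in an intron of ints-8 had 246, with 119 in replicate 1 and 126 in replicate 2. The related gene mrpr-1 had a candidate of 202 that fell in a promoter window and is no member. The copies of the signal recognition particle gene resemble each other, and except at srpr-3 under 50% of the 31-base words at these members were unique, so how reads were shared among them is uncertain.

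A pair of members lay in the 5S ribosomal RNA array on chromosome V. Their signals were 307 at 17122186, with 170 (169.6) in replicate 1 and 142 in replicate 2, and 139 at 17123103, with 84.8 and 69.96. They lay 124 and 65 bp from annotated 5S genes, and neither overlapped the conservative set. Of the words at these summits, 26.9% and 16.4% were unique.

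Repeated sequence was most common among the strongest members. When the windows were aligned to each other, 335 members (22.3%) fell into 54 families, of which 30 had 3 or more members, and no such share was computed for the comparison regions. Windows under 50% unique made up 9.53% of members (interval 8.09 to 11.1), 4.40% of the other distal candidates and 7.96% of the tiles. In the first 100 members the share was 51%, and in ranks 801 to 1500 it was 4.71%. Diverged tandem repeats remained under the 75% limit. A self-match of 50% or more was found in 159 members (10.6%, 9.09 to 12.3), in 3.61% of the other distal candidates and in 2.59% of the tiles, and in 6 of the first 10 members. The rule therefore kept the set off tandem repeats only at the limit used.

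The family words named below were chosen after values were seen. The largest family had 89 members, of which 50 were intronic, 38 intergenic and 1 exonic. Its most common word, TCCGGCAA, was in 47 of the 89 windows, in 2.97% of the other distal candidates and in 1.81% of the tiles. Chromosome I held 27 of these members and chromosome III 21, while chromosome X held 1. Signals were modest, with a median of 62.0 and a highest value of 98.8, and 6 of 89 overlapped the conservative set. The cadherin gene hmr-1, which joins embryonic epidermal cells, held 3 of these windows in its long introns.

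The family of 26 consisted of diverged copies of TTAGGC, the repeat of worm telomeres, inside the chromosomes. All 26 windows held TTAGGC and 24 held 2 copies in a row. TTAGGC alone was in 7.80% of members, 6.77% of the other distal candidates and 5.10% of the tiles. In members as a whole, 2 copies in a row were found in 1.73% (26 members), in 0.755% of the other distal candidates and in 0.332% of the tiles. Of the 26, 16 were intronic, 9 intergenic and 1 exonic, and the median signal was 63.8. They lay in or near genes that include the zinc finger regulator lin-29, the homeobox gene unc-62 and the perlecan gene unc-52, picked after values were seen. Their 31-base words were mostly unique (median 98.0%), since the copies have diverged, and 5 of the 26 overlapped the conservative set.

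The family of 32 held the word CTACAGTA in 30 windows. A group of 4 of its members lay within 2.02 kb beside Y61B8B.3, with signals between 103.6 and 261, and none of the 4 overlapped the conservative set. A further member, in an intron of stim-1, the calcium sensor of the endoplasmic reticulum, had 183, with 93.4 in replicate 1 and 73.0 in replicate 2, and overlapped both replicates' own sets. Over the family the median was 69.1, and 4 of 32 overlapped the conservative set.

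The highest signals of all belonged to small sequence families. A family of 7 lay at only 2 places, near R57.2 on chromosome X and near lgc-26 on chromosome V, with signals between 67.8 and 1430.3. None of the 7 overlapped the conservative set although 6 reached the score of 830. A family of 6 held the window near clec-9 (865), whose self-match of 74.5% was just under the limit, and a family of 6 held 3 windows beside Y57G11C.8 (553, 312 and 183). Their shared words were AAAAAATA, also in 9.50% of the other distal candidates and 12.7% of the tiles, and AAGGATCA, in 0.729% and 0.701%. The member in cmk-1, a calmodulin-dependent kinase gene, belonged to a family of 3. Its window is a diverged tandem repeat and 31.6% of its words were unique, while it overlapped both replicates' own sets.

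**Figure D4:**
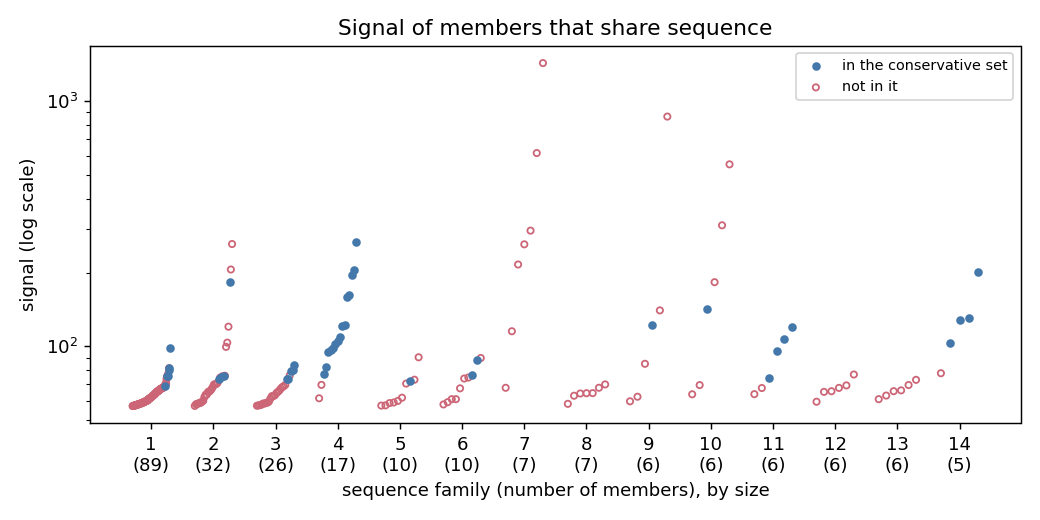
Signal (log scale) of every member in the 14 largest sequence families, ordered by size with the number of members in brackets; filled points overlap the authors' conservative set and open points do not. Family 4, the tRNA-like element, and family 14, the signal recognition particle RNA genes, are mostly filled, whereas family 7 reaches 1430.3 with no filled point.

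Members also crowded in places. With gaps of at most 5000 bp, 15 groups of 4 or more loci were found, together 65 loci. The largest had 8 loci in 15.7 kb on chromosome V between 18703900 and 18719648, over Y69H2.9, Y17D7C.1, Y17D7C.2 and Y17D7C.6. It held 4 intronic, 2 exonic and 2 intergenic members with signals between 58.3 and 116. Of the 8, 5 overlapped the conservative set and 3 both replicates' own sets, and 1 of the 8 windows was repeated sequence. The exonic member in Y17D7C.2 had 47.0 in replicate 1 and 65.8 in replicate 2. The groups near lgc-26, R57.2, Y61B8B.3 and ZC247.1 had 4 loci each, all with repeated sequence and none in the conservative set.

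Density differed between chromosomes. Per Mb of eligible distal sequence there were 25.4 members on chromosome I, 23.8 on II, 25.2 on III, 16.4 on IV, 16.9 on V and 17.1 on X. The other distal candidates differed in the same way, with 753, 744 and 797 per Mb on I, II and III and 565, 618 and 643 per Mb on IV, V and X. Chromosome X held 15.7% of members (interval 13.9 to 17.6), 17.7% of the other distal candidates and 18.7% of the distal tiles. With each chromosome cut into 3 equal parts, the outer parts held 23.5 members per Mb and the middle parts 13.6, and the outer parts were higher on each of the 6 chromosomes. In the conservative set, densities ran between 1.69 members per Mb on I and 3.36 on III, so the high place of chromosome I was not seen there.

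Member windows were rich in GC. The median GC content of the windows was 44.8% in members (quartiles 40.3% and 49.4%), 38.8% in the other distal candidates, 36.8% in flanks centred 500 bp to each side and 35.3% in the tiles. Exonic members had 46.3%, against 41.8% for the other exonic distal candidates. Intronic members had 43.8%, against 37.3%, and intergenic members had 43.8%, against 37.8%. In 50 bp bins the mean GC at the summit was 46.3% in intergenic, 45.8% in intronic and 49.2% in exonic members, and it was 35.4%, 38.0% and 37.4% in the bin 500 bp downstream on the plus strand. The peak of GC content was thus present in all 3 classes. Whether amplification or sequencing of GC-rich fragments adds to it was not tested.

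Motif shares have to be read beside that base composition. The class C site CACGCG was found in 91 member windows (6.07%, interval 4.91 to 7.40), in 3.05% of the other distal candidates, in 2.50% of the flanks and in 2.11% of the tiles. The palindromic E box CACGTG was found in 110 member windows (7.33%, 6.07 to 8.77), in 4.71% of the other distal candidates, in 3.37% of the flanks and in 3.32% of the tiles. Among control words with the composition and CpG number of the class C site, CCGACG was in 4.93% of members and 4.25% of the other distal candidates, and CGACCG in 3.53% and 2.60%. Both strands were searched, and CACGCG and CACGTG are forms of CACGNG, which 22.1% of members and 15.3% of the other distal candidates held. The general E box CANNTG, of which CACGTG is a form, was in 57.3% of members and 56.1% of the other distal candidates.

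Within windows of 40% to 50% GC, the class C site was in 45 of 790 members (5.70%, interval 4.18 to 7.55) and 4.21% of the other distal candidates. Within windows of 50% GC or more, it was in 35 of 340 members (10.3%, 7.28 to 14.03) and 7.06%. Under 40% GC, it was in 11 of 370 members (2.97%, 1.49 to 5.26) and 1.80%. The class C share was higher in members in all 3 ranges, but the interval of members covered the share of the other candidates in the lowest and the middle range. CACGTG was in 6.22% of members under 40% GC (3.98 to 9.18) and 3.25% of the other distal candidates, in 7.34% (5.62 to 9.39) and 6.47% at 40% to 50%, and in 8.53% (5.79 to 12.02) and 7.06% at 50% or more, so its interval covered the share of the other candidates in the upper 2 ranges. From the lowest range to the highest, the control CCGACG was in 1.08%, 3.67% and 12.1% of members and in 1.82%, 6.07% and 14.4% of the other distal candidates. In the same order the control CGACCG was in 1.62%, 3.04% and 6.76% of members and in 1.58%, 3.37% and 6.76% of the others.

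The classes differed in which site they held. The class C site was in 8.13% of intronic members (5.97 to 10.8), 5.79% of intergenic members and 3.69% of exonic members (2.08 to 6.02), whereas it was nearly level among the other distal candidates, at 3.40%, 3.04% and 2.69%. CACGTG was in 11.8% of exonic members (8.85 to 15.4), 5.36% of intronic members and 5.97% of intergenic members, and in 5.87%, 4.08% and 4.15% of the other distal candidates of these classes and 4.50%, 2.85% and 2.80% of the tiles. The exonic share was thus the highest of the 3 in the comparison regions as well. Among the 172 members in the conservative set, the class C share was 10.5% (6.32 to 16.03) and that of CACGTG was 7.56%. The control CGACCG was also higher there, at 7.56% (4.09 to 12.6) against 3.53% of all members. The control CCGACG was at 4.65% against 4.93%. In windows with none of the repeat or RNA gene features, the 81 in the conservative set had the class C site in 7.41% (2.77 to 15.4). CACGTG was in 12.3% of these 81 (6.08 to 21.5). The 973 outside the conservative set had 5.24% and 7.61%. The control CCGACG was in 7.41% of the 81 and 5.65% of the 973, and CGACCG in 3.70% and 3.49%. The class C share was thus not above that of CCGACG in either group, but it was above that of CGACCG.

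**Figure D5:**
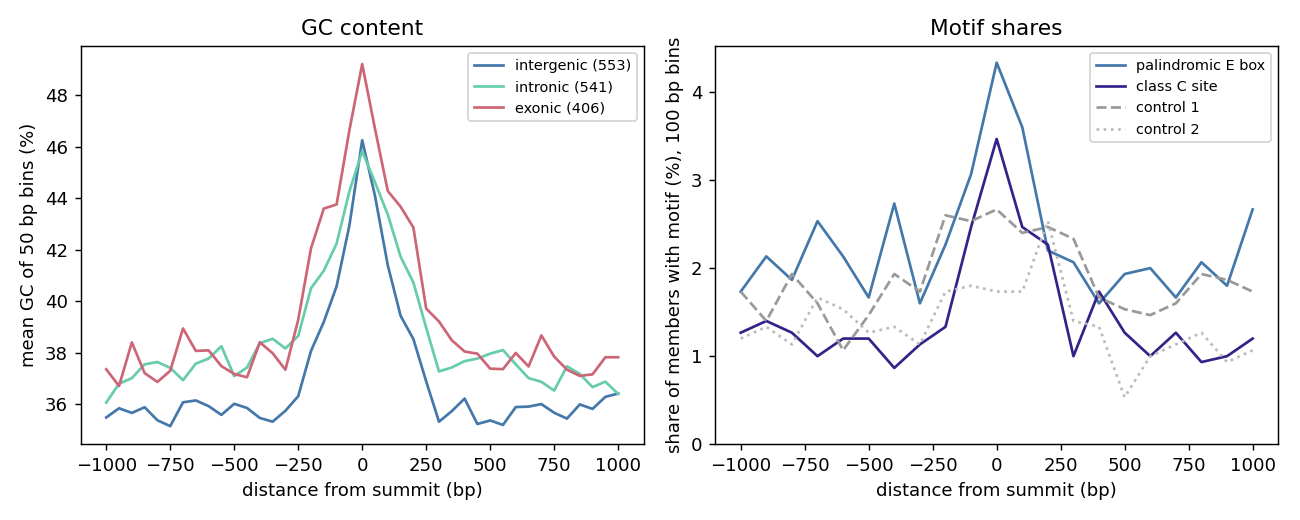
Left, mean GC content (%) of 50 bp bins by distance from the summit (bp) for intergenic, intronic and exonic members. Right, share of the 1500 members (%) with a motif in each 100 bp bin: the palindromic E box (CACGTG), the class C site (CACGCG), and the control words CCGACG (control 1) and CGACCG (control 2). At the summit the shares are 4.33% for the E box, 3.47% for the class C site, 2.67% for control 1 and 1.73% for control 2.

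Shares of the other words are given here without regard to base composition, except where it is named. GAGAGA was in 15.7% of members (13.9 to 17.7) and 22.2% of intergenic members (18.8 to 25.9), against 11.3% of the other distal candidates and 9.55% of the tiles. CCGCCC was in 9% of members, 4.74% of the other distal candidates and 2.97% of the tiles. In windows of 40% to 50% GC, GAGAGA was in 17.1% of members (14.5 to 19.9) and 14.3% of the other distal candidates, and CCGCCC in 8.23% (6.41 to 10.4) and 6.19%. Under 40% GC, GAGAGA was in 10.3% (7.37 to 13.8) and 8.69%, and CCGCCC in 5.41% (3.33 to 8.23) and 2.88%. At 50% GC or more, GAGAGA was in 18.5% (14.5 to 23.1) and 16.1%, and CCGCCC in 14.7% (11.1 to 18.9) and 12.1%. The interval of members thus covered the share of the other candidates for GAGAGA in the lowest and the highest range. For CCGCCC it did so in the highest range. The exact B box GTTCGANNC was in 3.20% of members (2.37 to 4.22), 1.71% of the other distal candidates and 1.51% of the tiles, and in 8.14% of members in the conservative set. AT-rich words were fewer, with TTTGAA in 25.6% of members, 40.9% of the other distal candidates and 49.5% of the tiles, and TGATAA, the core of a GATA site, in 10.07%, 14.6% and 17.6%. A form of the LAG-1 site, ATGGGAA or GTGGGAA, bound by the DNA-binding factor of the Notch pathway, was in 7%, 6.51% and 5.88%. TAATTA, a homeodomain word, was in 5.13%, 6.91% and 9.18%. CACNAG, an N box form, was in 23.7%, 21.4% and 18.7%. CAGGTG was in 7.40%, 5.97% and 4.84%, and CAGCTG in 6.33%, 4.71% and 3.94%. CCAAT was in 36%, 38.5% and 37.2%, and TGTTTAC, a forkhead word, in 1.47%, 1.93% and 2.17%. The control palindromes GCATGC and CGTACG were in 3.07%, 2.21% and 1.84%, and in 0.867%, 0.883% and 0.749%.

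Some strong members in unique sequence had no annotated noncoding RNA gene within 100 bp. They were chosen after their values were seen, and all those named here overlapped the conservative set. The strongest 2 were intergenic. The member 838 bp from the start of D2096.7 had 184, with 91.4 in replicate 1 and 92.0 in replicate 2, and the member 8302 bp upstream of aakg-1, a subunit gene of AMP-activated kinase, had 182, with 68.4 and 116. In introns, mdt-26, which encodes a Mediator subunit, had 133, with 69.4 in replicate 1 and 56.5 in replicate 2. The actin gene act-4 had 117, with 48.8 and 62.3. The member in an intron of sel-8, the coactivator of the Notch pathway, had 111, with 52.4 in replicate 1 and 46.9 in replicate 2. Its window had neither the class C site nor any E box. A member 5969 bp upstream of egl-18, a GATA factor gene of the epidermis, had 102, with 42.7 and 57.1.

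The strongest exonic members were weaker. H03A11.2 had 179, with 88.6 in replicate 1 and 91.4 in replicate 2, and ZC247.1 had 122, with 82.6 and 41.0, and both windows were repeated sequence outside the conservative set. Of the 10 strongest exonic loci, those in Y17D7C.2 (116), Y39G8B.9 (89.5), mbk-2 (85.6), which encodes a kinase of the egg-to-embryo transition, and spr-4 (85.1), a suppressor of presenilin loss, overlapped the conservative set. The others were in Y69H2.9, the collagen gene col-183 (90.2), Y43F8C.6 and mdt-29, at between 85.7 and 99.7. The member in Y69H2.9 overlapped both replicates' own sets, with 26.8 in replicate 1 and 64.4 in replicate 2, but it had a score of 106 and did not overlap the conservative set.

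Collagen genes, which encode the cuticle, held 15 of the 406 exonic members. Of 174 collagen genes, 19 (10.9%) had a locus in the gene or nearest to it within 5000 bp, against 1192 of 19973 protein-coding genes (5.97%). The 21 loci of these genes included the 15 exonic ones, 10 of which shared sequence as a family, with a median GC content of 62.9%. Signals of the 15 ran from 57.3 at sqt-3 to 90.2 at col-183. The window in col-183 had 42.3 in replicate 1 and 32.1 in replicate 2, and the window in col-64 had 24.9 in replicate 1 and 60.6 in replicate 2. Of the 15 exonic windows, the one in col-73 overlapped the conservative set.

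The lists of regulators are short, so each gene weighs heavily in its share, which is to be read against 5.97% of all protein-coding genes. A gene counted when it held a locus, or when its start was the nearest within 5000 bp of an intergenic locus. Of 26 Notch pathway genes, 6 had a locus (23.1%), with a median signal of 66.8: sel-8 (111), the ADAM protease gene sup-17 (73.5), the ligand genes dsl-3 (69.9) and lag-2 (63.6), and others below. Of these, the sel-8 locus alone overlapped the conservative set. Of 28 Wnt pathway genes, 8 had a locus (28.6%), led by mom-1 (92.7), kin-19 (83.2), the receptor gene cam-1 (66.3) and lin-17 (64.6), and none was in the conservative set. Of the REF-1 family, hlh-29 alone had a locus, at 57.5 near the limit, in a repeated window (49.1% of its words unique). Of 35 other bHLH genes, 5 had a locus, among them hlh-2 (74.5), mxl-3 (68.7), sbp-1 (65.1) and hif-1 (64.7).

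Of 88 other homeobox genes, 9 had a locus (10.2%), led by alr-1 (82.5), ceh-83 (75.8), unc-86 (63.4) and ceh-37 (61.4). Of the 6 Hox genes, nob-1 had one in an intron (73.0). T-box genes had 2 of 21 (tbx-32 at 65.2 and tbx-33 at 63.3), and nuclear receptors 18 of 274 (6.57%, near the 5.97% of all genes), led by nhr-277 (267, the tRNA-like element), nhr-17 (73.5), nhr-88 (73.4) and daf-12 (72.2). Fate lists gave 1 of 9 endoderm genes (pop-1, 64.1), 0 of 10 pharynx genes, 2 of 10 muscle and mesoderm genes (sem-2, 64.9, and mls-2, 62.4), 4 of 32 neuronal genes (led by hlh-2 and unc-3, 72.1, with egl-46, 67.0) and 2 of 10 epidermal genes (elt-1, 62.0, and lin-26, 57.7). Nearly all of these loci were close to the median signal of all members.

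The remaining lists had a smaller share of genes with a locus than the 5.97% of all genes. Cytosolic ribosomal protein genes had 3 of 82 (rps-27 at 81.2, rps-11 at 57.9 and rps-7 at 57.7), core histone genes 0 of 71, heat shock and chaperone genes 0 of 24 and vitellogenin genes 0 of 6. Chemoreceptor genes had 32 of 1296 (2.47%), led by srt-52 (162), sre-47 (140.2), srj-9 (99.5) and srw-100 (98.8), all in sequence families. C-type lectin genes had 11 of 240 (4.58%), led by clec-9 (865), clec-219 (72.3), clec-63 (68.5) and clec-145 (65.7). F-box genes had 3 of 322 (0.932%), namely fbxc-32 (71.8), fbxa-215 (59.9) and fbxb-46 (59.8). Gene length was not equal across lists, with a median of 2027 bp over all protein-coding genes, 2538 bp for Notch, 4542.5 bp for Wnt and 1525 bp for F-box genes, and the order of the lists changed when loci were counted per Mb of gene length. That density was 21.4 loci per Mb over all genes, 52.4 for Notch genes and 54.0 for Wnt genes. It was 45.9 for ribosomal protein genes, 23.5 for C-type lectins, 21.6 for nuclear receptors, 14.3 for chemoreceptors and 5.26 for F-box genes.

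Some genes held several loci. Counted from 5000 bp upstream to the gene end, hmr-1 had 6 loci, all intronic, with signals between 58.5 and 70.5. The gene kal-1, which guides epidermal cells and axons, the spectraplakin gene vab-10 and the Ski-like regulator daf-5 had 5 each. The genes lgc-26, Y67D8A.2, ZC247.1, pqn-41, the latrophilin gene lat-1 and the talin gene tln-1 had 4 each. The gene hmr-1 spans 58913 bp and vab-10 57568 bp, whereas lgc-26 spans 3113 bp and its 4 loci were the local repeat upstream of it. Of all 1776 genes with a locus in this range, 211 had 2 or more. None of the loci of hmr-1, vab-10 and daf-5 overlapped the conservative set.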

How the data were processed

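Chromatin precipitation with sequencing was deposited as peak lists on ce11 for both replicates together and for each replicate. Signal, the score and the −log10 of the irreproducible discovery rate are the authors' values in the deposited lists. They are known from the column order, since the lists have no header, and the scale of the signal is not given. The aligner, the peak caller and their versions were not stated in any source used. Without read counts the depth is unknown.

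Members were taken as described above, with gene models of Ensembl release 115. The members and the lists of genes and motifs were chosen with earlier results of these data known. By rule, the named genes were the 10 strongest loci of each class and the 10 genes with most loci. Up to 4 genes of each list and up to 3 of each RNA class were named as well. Other genes, such as the further microRNA genes, col-73 and sqt-3, were added after values were seen, which the text does not say at each place. Windows of 100 bp to each side of the summit were read from the genome, and families were made by aligning windows with BLAST+ 2.17.0 (alignments of at least 50 bp, E value up to 1e-05). Overlap with a set meant at least 1 bp. Shares have exact 95% binomial intervals and nothing was tested, because there is 1 group and the members were chosen on signal. Calculations used Python 3.11.15, pandas 2.3.3, numpy 2.4.6, scipy 1.17.1, networkx 3.6.1 and matplotlib 3.10.9, and were checked on simulated data.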

Additional observations from a re-analysis of the deposited data

How the results depend on the processing

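Of 108 values under other settings, 82 stayed within the interval of the value reported and 26 moved outside it; the share on chromosome X moved in none of its 15 settings (14.9% to 17.5%). The causes were not tested. Among members in the conservative set, 13.4% were exonic, 40.1% intronic and 46.5% intergenic, 18.0% were in both replicates' own sets, 10.5% held CACGCG and the median GC was 46.8%. Without the tandem repeat limit the shares were 23.1% exonic, 31.9% intronic and 44.9% intergenic, with 3.07% in both sets and a median GC of 43.8%; with a limit of 50%, 29.5% were exonic. Of the first 1000 members, 3.20% were in both sets. Within 50 bp of the summit, 3.40% held CACGCG and the median GC was 46.5%.

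With each replicate's own ranked list in turn, so leaving out the other replicate, the exonic share was 28.3% to 30.9%, the intronic 33.7% to 36%, the intergenic 35.4% to 35.7% and the share in both sets 2.2% to 2.27%. CACGCG was in 4.73% from either list, and the median GC was 43.8% to 44.3%. The lower CACGCG share thus came with either replicate alone.

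A pair of settings was chosen after seeing the data. Outside sequence families, 32.9% were exonic, 33.4% intronic and 33.7% intergenic, with 1.20% in both sets. With 90% or more unique 31-base words, 32.1% were exonic and 32.5% intergenic, with 1.19% in both sets. No paired analysis was possible because there is 1 group and no test. The unknown depth limits what low signals can show.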
